A study of Mus musculus with 12 samples.

Results

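The genes described are 32 mouse genes of G2 and mitosis, the last stage before division and division itself: cyclins and Cdk1, mitotic kinases, the chromosomal passenger complex, kinesins, other spindle and centromere proteins, genes of chromosome structure, and factors of mitotic entry and exit. They were chosen by symbol and not by a measured value, but with earlier results of these data known. The count table held 27179 genes, and all 32 members were found in it by Entrez gene number. All 32 passed the filter on low counts and were among the 13592 genes tested.

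RNA was counted per gene in B cells that had been sorted from mouse bone marrow for high B220, surface IgM and absence of CD93, the phenotype of mature B cells. All mice had the C57BL/6 background, and each of 4 groups had 3 libraries, which the series design describes as biological replicates. Young wild-type mice were 9, 10 and 11 weeks old and old wild-type mice 98, 99 and 100 weeks. The apoptosis-sensitive group (Bak-/- Baxfl/fl) and the apoptosis-resistant group (Bak-/- BaxD/D) were 10 weeks old and both lacked Bak, so that they differed in Bax (in the usual notation fl is an allele flanked by loxP sites and D its deleted form). BAK and BAX are the effectors that open the outer mitochondrial membrane in apoptosis. How and in which cells Bax was deleted, and whether animals were pooled, was not given in the sources used here.

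In a resting cell, genes of G2 and mitosis are held off by the DREAM complex, which binds the cell cycle genes homology region of their promoters. As a cell commits to division, B-MYB and FOXM1 replace this repression with activation, and the factor NF-Y, bound to CCAAT boxes nearby, supports it. The inhibitor p21, encoded by Cdkn1a, acts in the opposite direction by lowering the kinase activity that takes DREAM apart. Mature B cells of the marrow are recirculating cells that mostly rest. In bulk RNA, fewer cycling cells and less RNA per cycling cell cannot be told apart.

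Bax was at 55.7, 56.3 and 100.1 CPM (reads of a gene scaled to a fixed library total) in apoptosis-sensitive and 4.97, 6.42 and 8.36 in apoptosis-resistant libraries, and Bak1 at 6.17 to 14.4 CPM in these 6 libraries against 24.7 to 47.9 in the wild type, in accordance with the labels. Total counts ran from 13474162 to 23539764 per library. The labels give collection dates: each young library shares its date with the old library of the same number, and each apoptosis-sensitive library with the apoptosis-resistant library of the same number, which makes 6 date pairs. Date pair 1 of the wild type is labelled 2006 and the other 10 libraries 2016. The 11 defining markers of mature B cells summed to between 17510 and 24620 CPM per library, and none of them was at 0. Cd93, the gene of the surface protein sorted against, was at 9.52 to 36.1 CPM, and Ptprc, which encodes B220, at 1308 to 2265 CPM.

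The promoters are shown first, because the members share sequence features that the choice by symbol did not use. Promoter windows of 300 bases (250 before to 50 after the annotated start) were taken from RefSeq on GRCm38.p6, and 28 of the 32 members had one. Ccna2, Aurkb, Kif20a and Tpx2 had no entry. Those of the cyclins and Cdk1 that had an entry, the mitotic kinase Plk1 and the anaphase activator Cdc20 follow, 5′ to 3′ on the strand of the gene. Capitals mark the letters TTTGAA or TTCGAA, the core of the cell cycle genes homology region, and CCAAT, the NF-Y box, read on either strand, so that ATTGG is a CCAAT on the opposite strand.
Ccnb1 promoter, chr13:100786437-100786736, minus strand: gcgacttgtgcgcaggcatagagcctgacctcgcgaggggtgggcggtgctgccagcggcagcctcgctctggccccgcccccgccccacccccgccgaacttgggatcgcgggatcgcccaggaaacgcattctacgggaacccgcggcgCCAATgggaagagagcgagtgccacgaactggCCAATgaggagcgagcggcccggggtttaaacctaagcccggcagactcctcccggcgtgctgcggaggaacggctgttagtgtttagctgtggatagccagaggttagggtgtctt
Ccnb2 promoter, chr9:70421505-70421804, minus strand: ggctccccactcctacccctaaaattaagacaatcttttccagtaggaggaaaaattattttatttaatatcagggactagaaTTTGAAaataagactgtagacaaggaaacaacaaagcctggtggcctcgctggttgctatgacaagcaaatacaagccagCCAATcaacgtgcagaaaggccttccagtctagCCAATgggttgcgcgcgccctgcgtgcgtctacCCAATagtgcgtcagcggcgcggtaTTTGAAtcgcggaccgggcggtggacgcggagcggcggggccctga
Cdk1 promoter, chr10:69352863-69353162, minus strand: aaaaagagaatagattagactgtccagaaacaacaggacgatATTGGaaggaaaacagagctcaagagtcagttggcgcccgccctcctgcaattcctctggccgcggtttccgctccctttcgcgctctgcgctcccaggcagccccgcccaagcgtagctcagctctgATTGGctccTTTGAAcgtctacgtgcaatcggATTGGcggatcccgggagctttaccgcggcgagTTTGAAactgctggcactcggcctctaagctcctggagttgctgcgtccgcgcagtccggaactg
Plk1 promoter, chr7:122159185-122159484, plus strand: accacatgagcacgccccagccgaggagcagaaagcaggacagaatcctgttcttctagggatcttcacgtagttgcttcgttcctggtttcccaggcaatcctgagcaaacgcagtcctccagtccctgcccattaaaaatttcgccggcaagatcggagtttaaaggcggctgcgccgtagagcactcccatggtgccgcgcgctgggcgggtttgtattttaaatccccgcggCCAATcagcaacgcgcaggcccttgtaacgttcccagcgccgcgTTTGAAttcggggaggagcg
Cdc20 promoter, chr4:118437294-118437593, minus strand: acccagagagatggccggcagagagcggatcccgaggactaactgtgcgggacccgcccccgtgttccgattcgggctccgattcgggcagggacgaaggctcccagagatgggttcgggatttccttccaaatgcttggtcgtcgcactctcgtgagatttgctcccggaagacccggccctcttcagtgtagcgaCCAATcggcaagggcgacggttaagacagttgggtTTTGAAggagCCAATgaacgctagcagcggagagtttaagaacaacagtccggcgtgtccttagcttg

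The 5 windows differ in how these letters are arranged. Ccnb1 had 2 CCAAT matches and 0 of the homology region, Ccnb2 had 3 and 2, Cdk1 had 3 and 2, Plk1 had 1 and 1, and Cdc20 had 2 and 1. In Plk1 the CCAAT began at position -14, counted from the first base of the gene as 0, and the TTTGAA at position 30. In Cdc20 the TTTGAA lay at position -18, between CCAAT matches at -53 and -8. Over all 28 members with a window, 23 (82.1%) held TTTGAA or TTCGAA, against 21.7% of the 27025 genes in the promoter table. CCAAT was found in 24 members (85.7%) against 41.1% of genes, and both kinds in 22 members (78.6%) against 8.61%. A homology region match lay within 60 bases after a CCAAT in 18 members (64.3%) against 2.41% of genes. The same letters were found less frequently in the other lists: of the 36 genes of S phase and replication with a window, 19.4% held TTTGAA or TTCGAA and 61.1% CCAAT, and of 64 other G2 and mitosis genes 64.1% and 62.5%. Birc5, Melk and Nusap1 had no match of either kind in these windows. These are matches of letters, not measured binding sites.

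**Figure D1:**
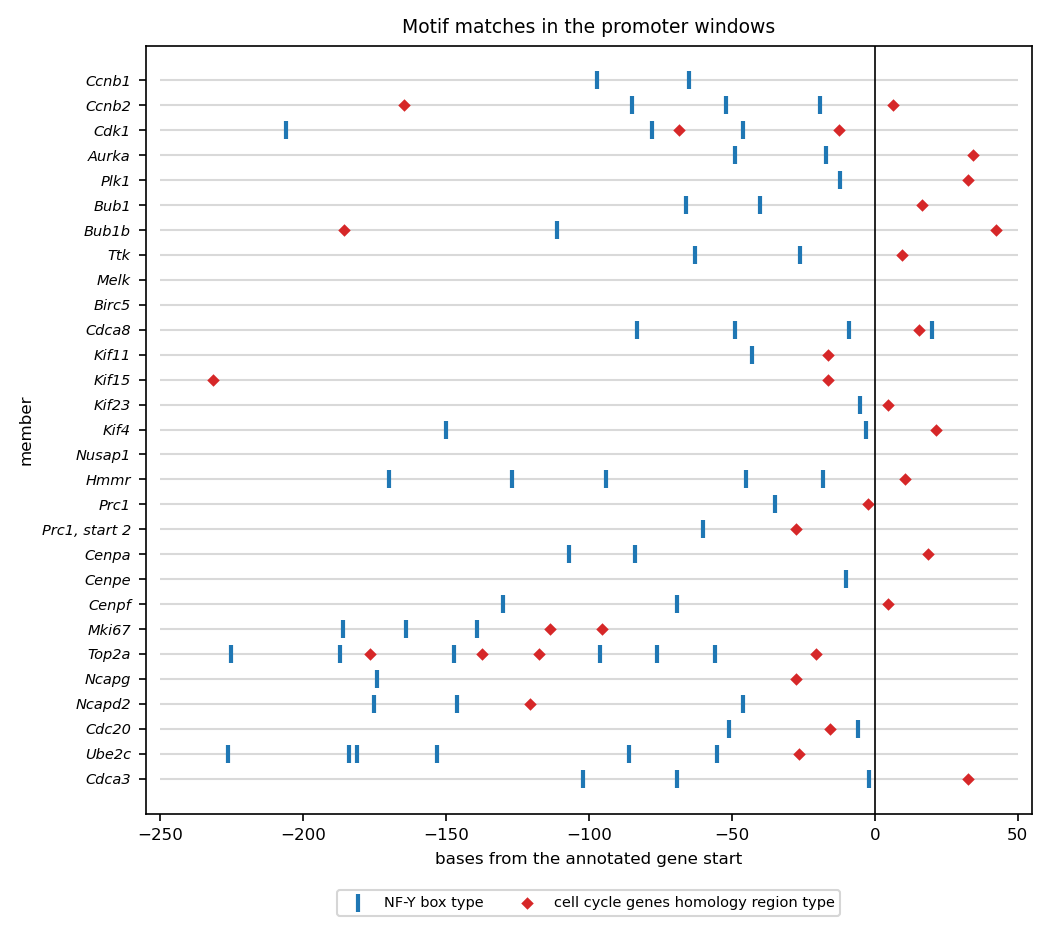
Positions of NF-Y box (CCAAT) matches, blue bars, and cell cycle genes homology region (TTTGAA or TTCGAA) matches, red diamonds, in the promoter windows of 28 members; the horizontal axis gives bases from the annotated gene start and each grey line is 1 window of 300 bases. Prc1 has 2 overlapping windows; Melk, Birc5 and Nusap1 have no match, and in 18 members a diamond follows a bar within 60 bases.

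Levels between members were compared per kilobase of exon, as mean CPM per kb over the 12 libraries. The length was that of all annotated exons of a gene joined over its transcripts, which can exceed that of a single transcript. It was 5860 bases for Cenpa and 6267 for Ncapd2, and the order of the members depends on this choice. By mean CPM without a length, Mki67 was the highest at 102, followed by Ncapd2 at 85.2. Ncapd2, a condensin subunit, was the highest at 13.6 CPM per kb, followed by the proliferation marker Mki67 at 10.2, the centromeric histone Cenpa at 7.95 and the DNA topoisomerase Top2a at 7.57. The lowest was the kinetochore protein Cenpf at 0.697, and the median member was at 2.37. Reads of a member in a library ran from 7 (Melk, a kinase of cycling cells) to 3564 (Mki67), and 8 members had under 20 reads in at least 1 library. The precision of these 8 (Ccnb1, Cdk1, Bub1, Ttk, Melk, Birc5, Hmmr and Ube2c) is limited by counting in the libraries where they are low.

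The members varied together from library to library. Apoptosis-sensitive replicate 3 was the highest of the 12 libraries for 23 members, young replicate 3 for 6 and young replicate 1 for 3. Apoptosis-resistant replicate 2 was the lowest of the 12 for 25 members and replicate 1 of that group for 5. Within the groups, replicate 3 was the highest for 23 members in young, 25 in old, 30 in apoptosis-sensitive and all 32 in apoptosis-resistant libraries. Replicate 2 was the lowest for 27, 18, 32 and 27 members in the same order. The highest library exceeded the lowest by a median of 7.42-fold over the members. It did so by at least 10-fold for 11 of them, and by less than 3-fold for Aurka, Bub1b, Cenpa and Ncapd2.

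**Figure D2:**
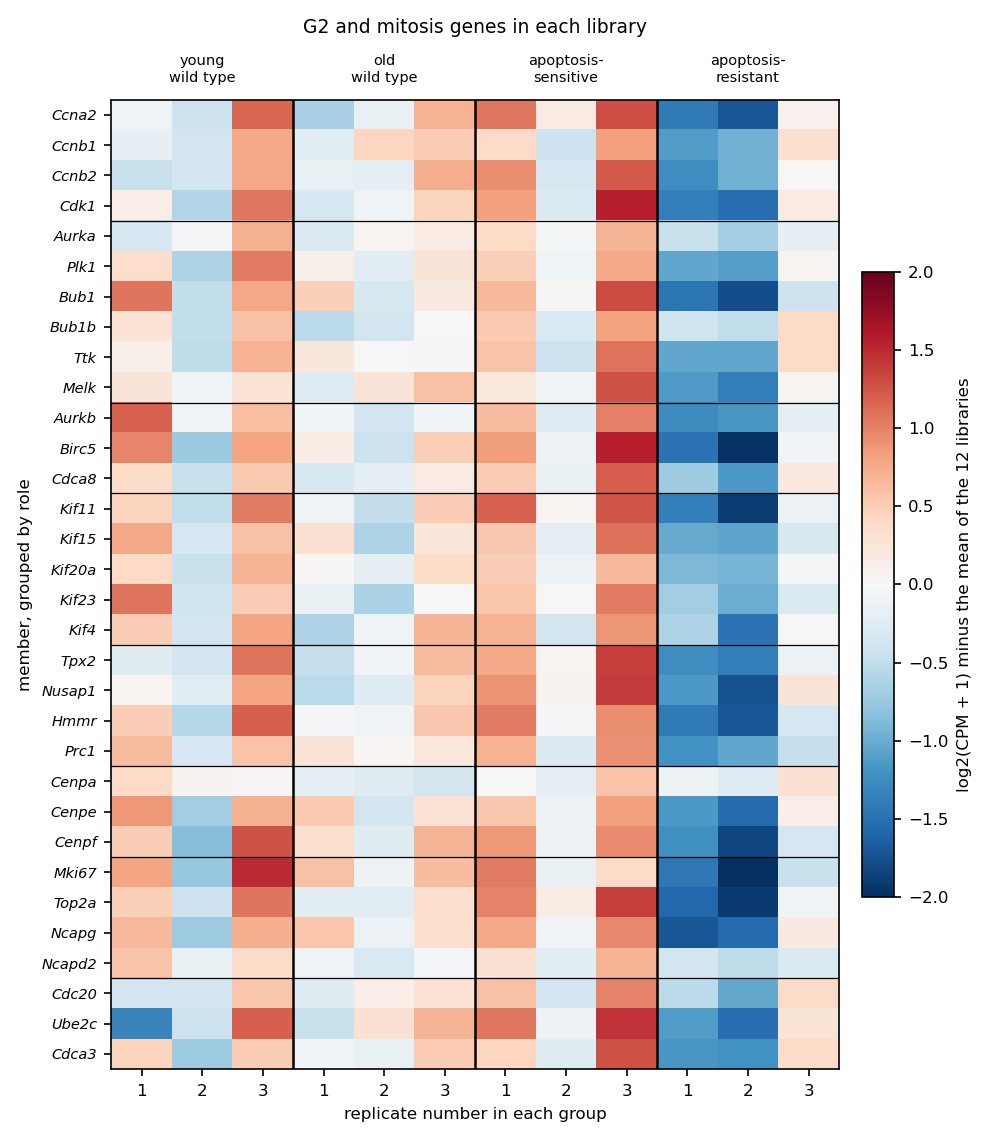
Each cell is a member's log2(CPM + 1) in 1 library minus its mean over the 12 libraries, with rows grouped by role and columns by group and replicate number; colours stop at 2 in either direction. Apoptosis-resistant replicates 1 and 2 are below the mean in all 32 rows, and in every group replicate 3 is above replicate 2 in at least 30 rows.

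Summed over the 32 members, young wild-type libraries held 769.6, 396.8 and 978.3 CPM and old ones 540.4, 451.8 and 656.0. Apoptosis-sensitive libraries held 878.3, 483.7 and 1047 CPM and apoptosis-resistant ones 266.2, 222.4 and 501.8. The old libraries lie inside the range of the young ones, while 2 of the 3 apoptosis-resistant libraries lie below every other library and the third overlaps the lowest apoptosis-sensitive one. The group means were 803 ± 289 (SD, n = 3) in apoptosis-sensitive, 715 ± 295 in young, 549 ± 102 in old and 330 ± 150 in apoptosis-resistant cells. This order held for the group means of 23 members. The group with the highest mean was the apoptosis-sensitive one for 29 members and the young one for Aurkb, Cenpa and Mki67. It was lowest in apoptosis-resistant cells for 30 members and in old cells for Bub1b and Cenpa. The gap between apoptosis-sensitive and young means was smaller than the SD of either group, and that between young and old was smaller than the SD of the young group but larger than that of the old. The gap between old and apoptosis-resistant cells was larger than either SD, but their libraries overlapped and this pair was not tested.

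**Figure D3:**
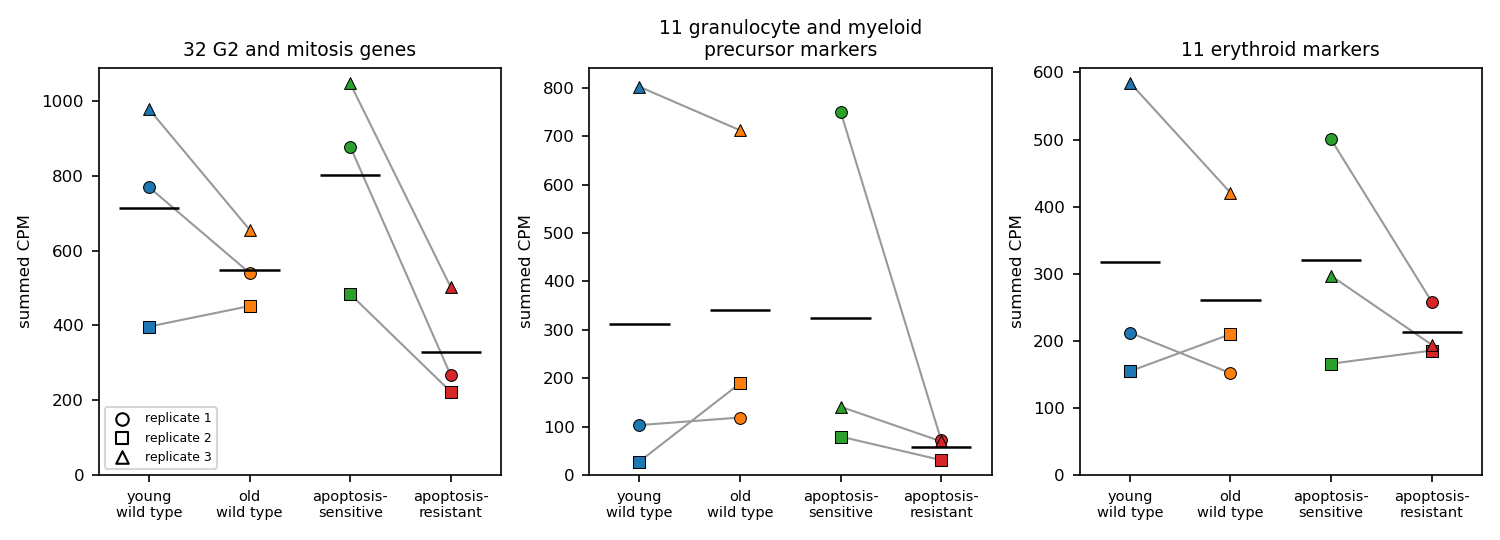
Summed CPM of the 32 members (left), 11 granulocyte and myeloid precursor markers (middle) and 11 erythroid markers (right) in each library, by group; marks give the replicate number, grey lines join libraries of 1 collection date and black bars are group means. In the left panel every apoptosis-resistant library is below the apoptosis-sensitive library of its date, while the wild-type lines go down in 2 pairs and up in 1.

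Apoptosis-resistant cells were compared with apoptosis-sensitive cells to see what the loss of BAX changes in cells that already lack BAK. All 32 members were lower on average in apoptosis-resistant cells, with log2 fold changes from -2.29 (Bub1) to -0.16 (Cenpa) and a median of -1.47, against -0.02 over all genes tested. All 32 were lower in each of the 3 date pairs, where 23.2% of all genes were lower in all 3. For 13 members the libraries of the groups did not overlap (8.31% of all genes): Ccna2, Aurka, Bub1, Kif11, Kif15, Kif23, Tpx2, Hmmr, Prc1, Cenpf, Mki67, Top2a and Ncapd2. The ratio of apoptosis-resistant to apoptosis-sensitive CPM had a median over members of 0.220 in date pair 1, 0.369 in date pair 2 and 0.431 in date pair 3.

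Whether these differences passed the test depended on the collection date. In edgeR's quasi-likelihood test without a date term, 0 of 32 members passed (0.0441% of all genes did), the lowest adjusted p being 0.271 for Prc1, while 26 were lower at an unadjusted p under 0.05 (2.97% of genes). With the date as a block, 27 members fell, where 3.41% of all genes passed and 1.97% fell. The members that did not pass then were Ccnb1, Bub1b, Ttk, Cenpa and Mki67. DESeq2 without a date term called 5 members lower (Bub1, Kif11, Hmmr, Prc1 and Top2a), with 0.944% of genes called and 0.553% called lower. With the block but without date pair 1, 2 or 3 of the Bak-deficient libraries, 10, 13 and 17 members passed. The share of all genes that passed in these fits is not given here. Without the block, p-values are set against the spread between libraries of a group. With it, they are set against the spread left within date pairs of both comparisons, on 4 residual degrees of freedom. In the paragraphs that follow, a member is said to have fallen where it passed with the date block, and adjusted p-values are edgeR's.

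**Figure D4:**
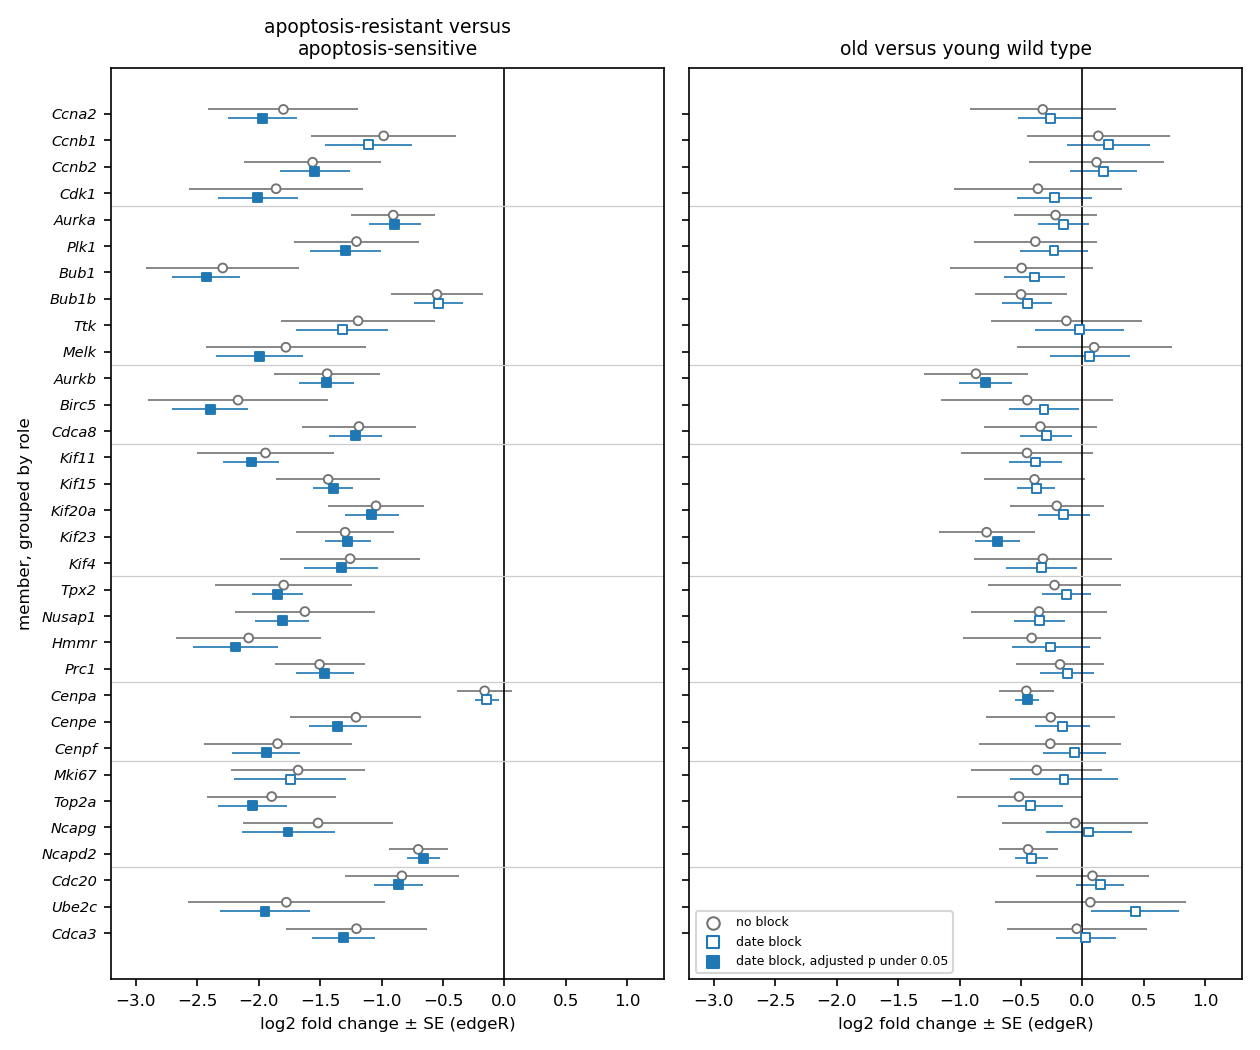
Log2 fold change ± SE of each member, grouped by role, for apoptosis-resistant against apoptosis-sensitive cells (left) and old against young wild type (right); grey circles are edgeR without a date term, blue squares edgeR with the collection date as a block, and filled marks have an adjusted p under 0.05. On the left 27 squares are filled and no mark lies above 0; on the right 3 squares are filled (Aurkb, Kif23 and Cenpa).

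Of the cyclins and Cdk1, the kinase and its activators that drive entry into mitosis, 3 of 4 fell between the apoptosis groups. Ccna2 (Entrez gene 12428, chromosome 3, 36564865 to 36573038), the cyclin of S phase and G2, was at 32.7, 17.2 and 38.3 CPM in apoptosis-sensitive and 5.03, 3.94 and 16.2 in apoptosis-resistant libraries. In young libraries it was at 14.2, 10.9 and 34.8 CPM and in old ones at 9.30, 13.5 and 25.1. The apoptosis-resistant libraries were all below the apoptosis-sensitive ones, while old and young libraries overlapped. The log2 fold change between the apoptosis groups was -1.80 ± 0.61 (edgeR, adjusted p = 0.614), and -1.97 ± 0.28 with the date block (adjusted p = 0.00861). Cdk1 and the mitotic cyclin Ccnb2 fell by 2.01 ± 0.33 and 1.54 ± 0.29 on the log2 scale with the block (edgeR, adjusted p = 0.00829 and 0.0144). Ccnb1, the other mitotic cyclin, had a log2 fold change of -1.11 ± 0.35 there (edgeR, adjusted p = 0.127).

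Of the 6 mitotic kinases, 4 fell between the apoptosis groups (Aurka, Plk1, Bub1 and Melk), with a median log2 fold change of -1.31 with the block. Bub1 (Entrez gene 12235, chromosome 2, 127800197 to 127831859), a kinase of the spindle checkpoint, was at 8.63, 5.23 and 14.1 CPM in apoptosis-sensitive and 1.24, 0.788 and 3.58 in apoptosis-resistant libraries. In young libraries it was at 11.8, 3.34 and 9.50 CPM and in old ones at 7.54, 3.89 and 5.97. All apoptosis-resistant libraries but replicate 3 were below every library of the other groups. Its log2 fold change was -2.29 ± 0.62 without (edgeR, adjusted p = 0.381) and -2.43 ± 0.28 with the date block (adjusted p = 0.00134).

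Bub1b (Entrez gene 12236, chromosome 2, 118598202 to 118641592), which encodes the checkpoint protein BUBR1, differed less. It was at 24.4, 13.3 and 29.8 CPM in apoptosis-sensitive and 12.3, 11.5 and 22.2 in apoptosis-resistant libraries. Young libraries held 20.2, 11.5 and 25.3 CPM and old ones 11.1, 12.6 and 16.4. The groups overlapped in both comparisons. Between the apoptosis groups its log2 fold change was -0.55 ± 0.37, and -0.54 ± 0.20 with the block (edgeR, adjusted p = 0.187). Aurka, the kinase of spindle poles, fell by 0.89 ± 0.21 on the log2 scale with the block (edgeR, adjusted p = 0.0423), and Ttk, which starts checkpoint signalling, had a log2 fold change of -1.32 ± 0.37 (edgeR, adjusted p = 0.0875).

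All 3 genes of the chromosomal passenger complex fell between the apoptosis groups. Aurkb (Entrez gene 20877, chromosome 11, 69045624 to 69051664), the kinase of this complex, was at 20.3, 10.6 and 26.9 CPM in apoptosis-sensitive and 4.83, 5.21 and 11.1 in apoptosis-resistant libraries. In young libraries it was at 30.6, 12.4 and 20.1 CPM and in old ones at 12.4, 9.67 and 12.4. The apoptosis groups overlapped by 1 library, and so did young and old, but every old library was below the young library of its date. Aurkb fell by 1.45 ± 0.23 on the log2 scale between the apoptosis groups and by 0.79 ± 0.22 between old and young with the block (edgeR, adjusted p = 0.00699 and 0.0331). Without the block these values were -1.44 ± 0.43 and -0.87 ± 0.42 (edgeR, adjusted p = 0.460 and 0.485). Birc5, which encodes survivin, the subunit that carries the complex to centromeres, had the largest difference after Bub1, falling by 2.40 ± 0.31 with the block (edgeR, adjusted p = 0.00238), and Cdca8, which encodes borealin, fell by 1.21 ± 0.22 (edgeR, adjusted p = 0.0115).

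All 5 kinesins, the motors of the spindle, fell between the apoptosis groups with the block, with log2 fold changes from -2.06 (Kif11) to -1.08 (Kif20a). Kif11 (Entrez gene 16551, chromosome 19, 37376382 to 37421863), which pushes the spindle poles apart, was at 44.5, 19.7 and 47.0 CPM in apoptosis-sensitive and 6.76, 4.36 and 17.6 in apoptosis-resistant libraries. It was at 26.3, 13.2 and 40.3 CPM in young and 17.9, 13.4 and 27.1 in old libraries. The apoptosis groups did not overlap and the wild-type groups did. Its log2 fold change between the apoptosis groups was -1.95 ± 0.56 without (edgeR, adjusted p = 0.420) and -2.06 ± 0.23 with the block (adjusted p = 0.00217).

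Kif15 (Entrez gene 209737, chromosome 9, 122951081 to 123018733), a motor that works beside Kif11, was at 20.5, 11.9 and 30.6 CPM in apoptosis-sensitive and 6.35, 6.12 and 10.8 in apoptosis-resistant libraries. Its levels were 23.9, 10.5 and 21.2 CPM in young and 17.2, 8.65 and 16.4 in old libraries. The apoptosis-resistant libraries were again all below the apoptosis-sensitive ones, and each old library was below the young library of its date. Kif15 fell by 1.39 ± 0.16 between the apoptosis groups with the block (edgeR, adjusted p = 0.00149), and its log2 fold change with age was -0.38 ± 0.16 (edgeR, adjusted p = 0.129).

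Kif23 (Entrez gene 71819, chromosome 9, 61917277 to 61946810), a motor of the central spindle in cytokinesis, was at 21.8, 14.5 and 30.5 CPM in apoptosis-sensitive and 8.55, 6.85 and 11.8 in apoptosis-resistant libraries. In young libraries it was at 31.5, 10.8 and 20.9 CPM and in old ones at 13.1, 9.01 and 14.6. The apoptosis groups did not overlap, and the wild-type groups overlapped through young replicate 2. With the block Kif23 fell by 1.28 ± 0.19 between the apoptosis groups and by 0.69 ± 0.18 with age (edgeR, adjusted p = 0.00425 and 0.0288). Without it neither passed (edgeR, adjusted p = 0.488 and 0.510).

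The 4 spindle and midzone proteins had the largest median difference of the 8 roles with the block, at -1.83 on the log2 scale, and all 4 fell. Tpx2 (Entrez gene 72119, chromosome 2, 152847964 to 152895321), the activator of Aurora A at the spindle, was at 17.3, 10.3 and 27.5 CPM in apoptosis-sensitive and 3.59, 3.15 and 9.03 in apoptosis-resistant libraries. It was at 8.22, 7.37 and 21.8 CPM in young and 6.90, 9.47 and 15.6 in old libraries. The apoptosis groups did not overlap. Its log2 fold change was -1.80 ± 0.56 without (edgeR, adjusted p = 0.502) and -1.85 ± 0.21 with the block (adjusted p = 0.00134).

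Nusap1 (Entrez gene 108907, chromosome 2, 119618298 to 119650165), which bundles spindle microtubules, was at 23.2, 12.5 and 32.9 CPM in apoptosis-sensitive and 4.83, 2.85 and 14.4 in apoptosis-resistant libraries. Its levels in young libraries were 12.4, 10.2 and 21.4 CPM and in old ones 7.88, 9.83 and 16.7. Only apoptosis-resistant replicate 3 reached the range of the apoptosis-sensitive libraries. Nusap1 fell by 1.81 ± 0.22 on the log2 scale with the block (edgeR, adjusted p = 0.00185).

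Prc1 (Entrez gene 233406, chromosome 7, 80294445 to 80316259), which crosslinks the microtubules of the midzone, was at 24.1, 11.7 and 28.1 CPM in apoptosis-sensitive and 5.66, 6.55 and 10.3 in apoptosis-resistant libraries. It was at 22.8, 11.3 and 21.9 CPM in young and 17.6, 14.9 and 16.8 in old libraries. The apoptosis groups did not overlap, nor did the apoptosis-resistant and young groups. Its log2 fold change was -1.51 ± 0.37 without (edgeR, adjusted p = 0.271) and -1.46 ± 0.23 with the block (adjusted p = 0.00855). DESeq2 without a date term gave an adjusted p of 0.0169. Hmmr, a spindle protein that also binds hyaluronan, fell by 2.19 ± 0.35 with the block (edgeR, adjusted p = 0.00829).

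The 3 centromere proteins did not move alike. Cenpa (Entrez gene 12615, chromosome 5, 30666877 to 30674837), the histone variant that marks the centromere, was at 45.3, 40.1 and 68.0 CPM in apoptosis-sensitive and 42.5, 38.2 and 56.5 in apoptosis-resistant libraries. In young libraries it was at 60.6, 48.1 and 46.6 CPM and in old ones at 39.7, 38.3 and 35.2. The apoptosis groups overlapped almost entirely, while every old library was below every young one. This was true of 1 of the 32 members, a smaller share than the 6.96% of all genes. Its log2 fold change between the apoptosis groups was -0.15 ± 0.10 with the block (edgeR, adjusted p = 0.492). With age Cenpa fell by 0.45 ± 0.10 with the block (edgeR, adjusted p = 0.0120), and without it the value was -0.46 ± 0.22 (adjusted p = 0.486). The call with the block was lost without date pair 1 of the wild type, as were those of Aurkb and Kif23 with age. Cenpe, a kinetochore motor, and Cenpf fell between the apoptosis groups by 1.36 ± 0.24 and 1.94 ± 0.28 with the block (edgeR, adjusted p = 0.0118 and 0.00444).

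Of the 4 genes of chromosome structure, Top2a, Ncapg and Ncapd2 fell between the apoptosis groups and Mki67 did not pass. Mki67 (Entrez gene 17345, chromosome 7, 135689784 to 135716450), which coats mitotic chromosomes and is the usual marker of cycling cells, was at 171, 74.9 and 111 CPM in apoptosis-sensitive and 30.3, 19.6 and 61.3 in apoptosis-resistant libraries. It was at 145, 49.04 and 235 CPM in young and 126, 77.7 and 128 in old libraries. The apoptosis groups did not overlap, but the ratio within date pairs ran from 0.177 in pair 1 to 0.554 in pair 3. The log2 fold change was -1.68 ± 0.55 without (edgeR, adjusted p = 0.569) and -1.75 ± 0.46 with the block (adjusted p = 0.157).

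Top2a (Entrez gene 21973, chromosome 11, 98992947 to 99024199), which untangles DNA before chromosomes separate, was at 114, 62.6 and 148 CPM in apoptosis-sensitive and 18.3, 14.2 and 54.5 in apoptosis-resistant libraries. Young libraries held 78.9, 42.0 and 119 CPM and old ones 48.5, 47.9 and 71.3. The apoptosis groups did not overlap. Top2a fell by 2.05 ± 0.28 with the block (edgeR, adjusted p = 0.0168). The condensin subunit Ncapd2 fell by less, 0.66 ± 0.13 (edgeR, adjusted p = 0.0247), and Ncapg, of the same complex, by 1.76 ± 0.38 (edgeR, adjusted p = 0.0443).

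The 3 ubiquitin ligase and entry factors, Cdc20, Ube2c and Cdca3, all fell between the apoptosis groups with the block. Cdc20 (Entrez gene 107995, chromosome 4, 118432901 to 118437343), the activator of the anaphase-promoting complex, was at 16.2, 7.76 and 21.7 CPM in apoptosis-sensitive and 6.97, 4.61 and 14.0 in apoptosis-resistant libraries. It was at 7.72, 7.75 and 15.8 CPM in young and 8.66, 11.5 and 12.96 in old libraries. The groups overlapped in both comparisons. Cdc20 fell by 0.86 ± 0.20 with the block (edgeR, adjusted p = 0.0377), and its log2 fold change with age was 0.15 ± 0.20 (edgeR, adjusted p = 0.663). Ube2c, the ubiquitin-conjugating enzyme of the same complex, fell by 1.95 ± 0.37 and Cdca3, a trigger of mitotic entry, by 1.31 ± 0.26 (edgeR, adjusted p = 0.0188 and 0.0182).

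Regulators of the members were compared in the same fits. Cdkn1a was at 3.16, 4.41 and 6.78 CPM in apoptosis-sensitive and 20.4, 21.6 and 23.5 in apoptosis-resistant libraries, and at 1.499 to 3.63 CPM in the 6 wild-type libraries. Every apoptosis-resistant library was thus above all the others. Its log2 fold change was 2.19 ± 0.36 without (edgeR, adjusted p = 0.0843) and 2.24 ± 0.28 with the block, where it rose (adjusted p = 0.00220). Ccnd2, a cyclin of G1 that is induced in stimulated B cells, was at 136, 112.6 and 119 CPM in apoptosis-sensitive and 32.5, 25.8 and 28.0 in apoptosis-resistant libraries. It fell by 2.09 ± 0.30 without the block (edgeR, adjusted p = 0.0449), but this call was lost without any 1 of the 6 libraries (adjusted p = 0.151 to 0.281), and it fell with the block (adjusted p = 0.00373), though not without date pair 3 (0.0545).

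Foxm1 was at 25.7, 18.5 and 23.8 CPM in apoptosis-sensitive and 11.5, 9.58 and 10.7 in apoptosis-resistant libraries, which did not overlap. In young libraries it was at 46.7, 17.1 and 26.2 CPM and in old ones at 20.9, 9.98 and 13.4. With the block Foxm1 fell in both comparisons, by 1.09 ± 0.13 between the apoptosis groups and by 0.97 ± 0.13 with age (edgeR, adjusted p = 0.00166 and 0.000908), and without it neither passed (adjusted p = 0.565 and 0.229). Mybl2, which encodes B-MYB, had log2 fold changes of -0.82 ± 0.27 and -0.12 ± 0.26 with the block (edgeR, adjusted p = 0.134 and 0.789).

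Other cell cycle genes were grouped by the phase in which they are known to act. Of 80 other G2 and mitosis genes, 38 fell and 1 rose between the apoptosis groups with the block, and the median log2 fold change without it was -1.05. The lowest p-values among those that fell were of Pbk (7.23 ± 3.44 to 1.04 ± 0.69 CPM), Kif14 (7.43 ± 2.82 to 1.46 ± 0.80) and Spag5 (16.2 ± 8.70 to 4.21 ± 2.96; SD, n = 3), and Psrc1 rose (2.82 ± 1.32 to 8.05 ± 1.52 CPM). Of 45 genes of S phase and replication, 16 fell and 0 rose, with a median of -0.47, among them Uhrf1 (43.8 ± 11.2 to 11.5 ± 3.99 CPM), E2f1 (16.3 ± 7.92 to 5.07 ± 2.01), Rad51ap1 (7.85 ± 4.47 to 1.94 ± 1.01) and E2f2 (161 ± 25.6 to 99.7 ± 8.28). Of 23 G1 cyclins, kinases and inhibitors, 2 fell (Ccnd2 and Ccnd3) and Cdkn1a rose, with a median of 0.00. Without the block, 0 of the 80, 0 of the 45 and 1 of the 23 (Ccnd2) passed. At an unadjusted p under 0.05, 41 of the 80, 16 of the 45 and 2 of the 23 were lower, as were 2.97% of all genes. With the block, 1.97% of all genes fell.

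**Figure D5:**
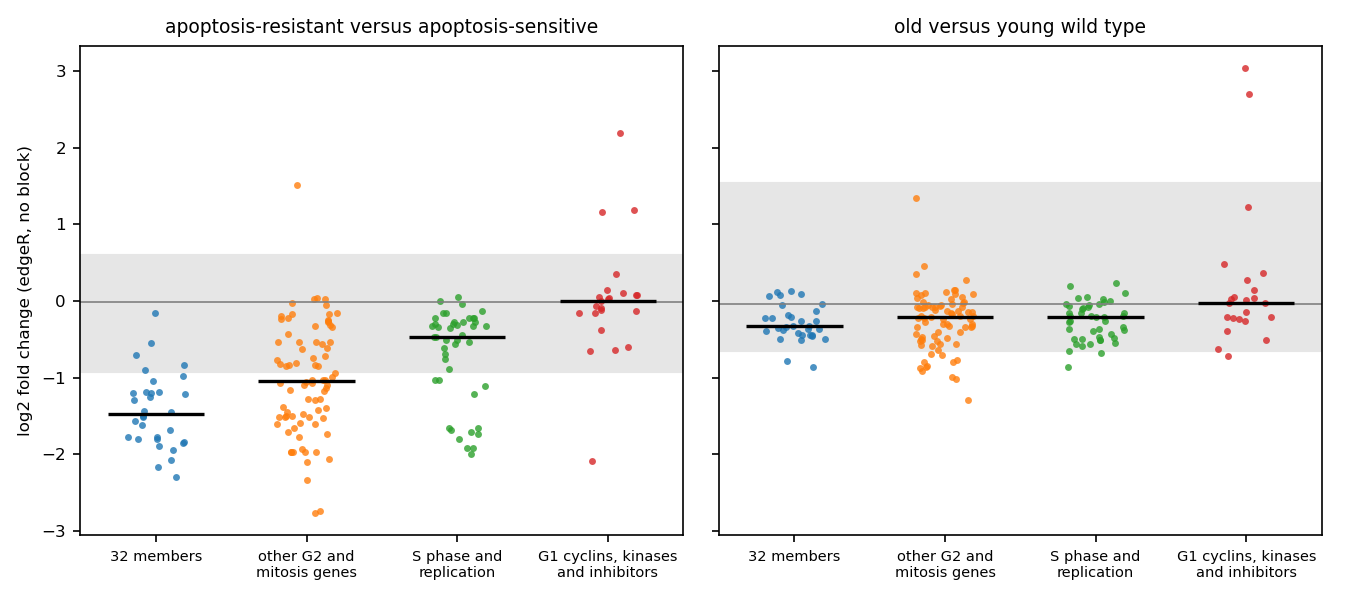
Log2 fold changes without a date term of the 32 members and of 3 other lists of cell cycle genes (80, 45 and 23 genes) for apoptosis-resistant against apoptosis-sensitive cells (left) and old against young wild type (right); points are genes, black bars list medians, the grey line the median and the grey band the 5% to 95% range of all 13592 genes tested. The medians on the left are -1.47, -1.05, -0.47 and 0.00 from left to right, and on the right all 4 lie inside the band.

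Markers of other marrow cells differed between the apoptosis groups in some lists. The 11 granulocyte and myeloid precursor markers summed to 750.7, 79.38 and 141.1 CPM in apoptosis-sensitive and 71.52, 30.85 and 69.44 in apoptosis-resistant libraries. All 11 had log2 fold changes below 0 (median -2.47) and 0 passed the test, with or without the block, while 3 were lower at an unadjusted p under 0.05. Mpo, a defining marker of early granulocytes, was at 0.970 to 15.5 CPM in these 6 libraries. The 11 erythroid markers summed to 500.1, 165.9 and 296.9 CPM against 258.4, 185.5 and 194.2. Of them, 10 had log2 fold changes below 0 and 1 above (median -1.70 without the block), and 0 passed with or without it. With the block, 7 were lower and 1 higher at an unadjusted p under 0.05, where 1206 and 1157 of 13592 genes were. The ratio of apoptosis-resistant to apoptosis-sensitive sums in date pairs 1, 2 and 3 was 0.0953, 0.389 and 0.492 for the granulocyte and myeloid precursor markers, 0.517, 1.12 and 0.654 for the erythroid markers, and 0.303, 0.460 and 0.479 for the members. The granulocyte ratios were below 1 in every pair, and the erythroid ratio was above 1 in date pair 2. Precursor B cell markers summed to 147.5, 153.1 and 192.3 CPM in apoptosis-sensitive and 156.3, 130.9 and 130.0 in apoptosis-resistant libraries. Of these, Cd93 (32.1, 31.3 and 33.2 against 21.1, 16.1 and 16.8 CPM) and Lef1 (8.90 ± 1.41 to 2.90 ± 0.616 CPM; SD, n = 3) fell with the block (edgeR, adjusted p = 0.00851 and 0.0101), and neither passed without it (0.220 and 0.185). Cd93 was also lost with the block without date pair 2 or 3 (edgeR, adjusted p = 0.0735 and 0.0764). Germinal centre B cell markers, of a B cell type that cycles rapidly, summed to 117.2, 154.1 and 91.18 CPM against 177.1, 172.7 and 316.6, so that they were higher in the apoptosis-resistant library of each date. All 9 had log2 fold changes above 0, and Fas, a death receptor, rose with the block. The 4 NK cell markers tested had log2 fold changes below 0, with list sums of at most 3.04 CPM in these libraries, and 0 passed. Of plasma cell markers 0 passed, and of monocyte and of T cell markers 1 each rose with the block. The part of these cells in the members' difference was not tested.

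Old wild-type cells were compared with young ones to see what age changes in these cells. Without a date term, 0 of 32 members passed (edgeR, 2.01% of all genes), 0 had an unadjusted p under 0.05 (3.52% of genes were lower at that p) and DESeq2 called 0 (5.16%). The log2 fold change was below 0 for 27 members, with a median of -0.33 against -0.03 over all genes, from -0.87 (Aurkb) to 0.13 (Ccnb1). The sign of the median rested on young replicate 3, without which it was 0.11. With the date block, Aurkb, Kif23 and Cenpa fell, where 14.9% of all genes passed and 7.03% fell, so that 3 of 32 is near the share of all genes. All 3 were lost without date pair 1 of the wild type, where 0 members passed, and Aurkb also without date pair 3. Without date pairs 2 and 3 the counts were 5 and 2. The shares of all genes in these fits are not given here, so the counts cannot be set against them.

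The date pairs of the wild type differed in direction. In date pair 1, 27 members were lower in the old library, with a median ratio of old to young CPM of 0.679, and in date pair 3, 30 were, with a median of 0.728. In date pair 2 only 6 were lower and the median ratio was 1.29. Those 6 were Aurkb, Kif15, Kif23, Nusap1, Cenpa and Ncapd2, and they were lower in all 3 date pairs, as were 25.2% of all genes. Young replicate 2, the young library of that pair, was the lowest young library for 27 members. The granulocyte and myeloid precursor markers summed to 103.2, 27.88 and 802.5 CPM in young and 118.8, 189.4 and 712.5 in old libraries, so that young replicate 2 was also the lowest of the 12 in these. The erythroid markers summed to 212.2, 154.6 and 584.9 CPM in young and 151.8, 209.9 and 420.7 in old libraries. The ratios of old to young sums in date pairs 1, 2 and 3 were 0.702, 1.14 and 0.671 for the members. They were 0.715, 1.36 and 0.719 for the erythroid markers, and 1.15, 6.79 and 0.888 for the granulocyte and myeloid precursor markers. The precursor B cell markers summed to 82.65, 134.3 and 166.2 CPM in young and 40.91, 52.46 and 79.77 in old libraries, and Cd93 fell from 32.4 ± 3.45 to 12.1 ± 2.22 CPM (SD, n = 3; edgeR without the block, adjusted p = 0.00514, and 0.106 where only the 6 wild-type libraries were fitted). T cell markers summed to 5.353 to 9.613 CPM in young and 28.61 to 35.05 in old libraries, and 8 of 11 rose with the block (3 without it). NK cell markers summed to at most 8.60 CPM in the wild type, and 4 of 4 tested rose with the block (2 without it). Of 8 monocyte and macrophage markers, 5 rose with the block (1 without it). Plasma cell markers reached 6076 CPM in old replicate 2 and 415.2 to 1121 in the other wild-type libraries, and 0 of 9 rose with the block (1 without it). The part of these cells in the members' values was not tested.

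The other cell cycle lists changed with age in a minority of genes. With the block, 8 of the 80 other G2 and mitosis genes fell and 1 rose, 8 of the 45 S phase and replication genes fell and 0 rose, and 4 of the 23 G1 genes fell and 3 rose. Of all genes tested, 7.03% fell and 1073 of 13592 rose there. Beside Foxm1, Ncaph (16.1 ± 5.39 to 8.72 ± 3.03 CPM) and Kif22 (17.3 ± 6.98 to 9.58 ± 2.52) fell among the G2 and mitosis genes and Haspin, a histone kinase of mitosis, rose (8.78 ± 2.12 to 22.2 ± 10.4). Among the S phase genes Uhrf1 fell (43.2 ± 13.7 to 23.7 ± 5.26 CPM), and among the G1 genes Cdkn2a, which encodes inhibitors known to accumulate with age, rose from 0.249 ± 0.0792 to 2.06 ± 1.24 CPM. At a mean of 0.249 CPM the young libraries held few reads of Cdkn2a, which limits the precision of this rise. Without the block none of these lists had a gene that passed (edgeR). At an unadjusted p under 0.05, 4 of the 80 were lower and 1 higher, 4 of the 45 lower and 0 higher, and 2 of the 23 lower and 2 higher. Of all genes, 3.52% were lower and 1095 of 13592 higher at that p.

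The difference between the effects, the age effect minus the genotype effect, was tested directly. Its median over members was 1.22 on the log2 scale, that is, the log2 fold change with age was above that between the apoptosis groups, and it was above 0 for 31 members, Cenpa being the exception. Without the block 0 members passed (edgeR, 0.250% of all genes), with 1 higher at an unadjusted p under 0.05 (5.02%) and 0 called by DESeq2 (1.88%). With the block 15 members passed, all of them higher, where 7.03% of all genes passed and 3.51% were higher. Among these were Ube2c with a difference of 2.38 ± 0.51, Tpx2 with 1.72 ± 0.29 and Bub1 with 2.04 ± 0.37 (edgeR, adjusted p = 0.0242, 0.00689 and 0.0109). Aurkb, Kif23 and Cenpa, the members that fell with age, had differences of 0.66 ± 0.31, 0.59 ± 0.26 and -0.30 ± 0.14 that did not pass (edgeR, adjusted p = 0.231, 0.199 and 0.212).

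For context, each apoptosis group was set against young wild-type cells, with which they share no collection date, so that date and genotype cannot be told apart. These comparisons share the young libraries with each other and with that of age. Of apoptosis-sensitive against young cells, 0 members passed in edgeR (0.00% of all genes) and in DESeq2 (0.103%), and 0 had an unadjusted p under 0.05 (1.70% of genes were lower at that p). The median log2 fold change was 0.23, and it was -0.04 without apoptosis-sensitive replicate 3 or young replicate 2. Of apoptosis-resistant against young cells, all 32 log2 fold changes were below 0 with a median of -1.20, and 0 passed in edgeR (0.162% of all genes), while 16 were lower at an unadjusted p under 0.05 (3.89%). For 3 members, Aurkb, Prc1 and Ncapd2, these groups did not overlap (6.22% of all genes). DESeq2 called Bub1, Aurkb and Mki67 lower (1.09% of genes called), with log2 fold changes of -2.11 ± 0.61, -1.56 ± 0.44 and -1.93 ± 0.53 (DESeq2, adjusted p = 0.0474, 0.0424 and 0.0315).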

How the data were processed

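Values were whole-number read counts per gene, deposited by the authors in 1 table. Per the labels' protocols, RNA was extracted with a Qiagen kit and libraries were made with the Illumina TruSeq RNA v2 method, and the tools named are Subread and featureCounts on build mm10, per the submitters' processing notes. The sources used here give no versions, annotation or strand setting, so reads of overlapping and antisense genes are uncertain. 0 columns were left unused. Symbols and coordinates came from RefSeq (GRCm38.p6), exon lengths from GENCODE vM21 and promoters from RefSeq.

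Low genes were removed with filterByExpr of edgeR (minimum of 10 reads). All 12 libraries were scaled by the trimmed mean of M values (TMM) and fitted by group with the robust quasi-likelihood test of edgeR 4.0.16 (R 4.3.3), with 8 residual degrees of freedom and Benjamini-Hochberg adjustment over all genes tested at 0.05. CPM are counts scaled to a fixed total after TMM. The block is the collection date, which leaves 4 residual degrees of freedom. Same-numbered libraries share a date by their labels, and their deviations from the group means had correlations of 0.745, 0.512 and 0.555 (wild type) and 0.284, 0.325 and 0.487 (Bak-deficient). For libraries of different dates the correlations ran from -0.618 to 0.373 (wild type) and from -0.383 to 0.211 (Bak-deficient). No replicate pair agreed within counting noise. A chi-square per gene against that noise was 188 to 249 between wild-type replicate 1 and the others of its group. Between replicates 2 and 3 it was 22.1 in young and 33.6 in old libraries. In the Bak-deficient groups it ran from 5.6 to 101. The fit was run on simulated counts in which genes varied independently, with dispersion set below the estimate and a date effect added. Members varied together in these data, so that run cannot show how reliable the fits are for them. Alternatives included DESeq2 1.42.0, other scaling, no filter and leaving out each library.

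The members and lists were chosen with earlier results of these data known. Values in every library are given for the member with the highest mean CPM in each role, the 5 members with the lowest p with the block, and the 3 with the lowest p in each main comparison. Of other lists, genes that passed in a main comparison were named, at most 4 in each direction, with fixed regulators and sort markers.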

Additional observations from a re-analysis of the deposited data

Results flagged for a closer look

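For 15 members the difference between the effect of age and the effect of genotype passed the test of that difference with the date block (edgeR, adjusted p from 0.00689 to 0.0457). Of all genes, 7.03% passed there and 3.51% were higher. With the block the difference was above 0 for 31 of the 32 members. All 15 differences that passed, age effect minus genotype effect on the log2 scale, were above 0. Among the cyclins and Cdk1 they were 1.71 for Ccna2, 1.72 for Ccnb2 and 1.78 for Cdk1, and among the mitotic kinases 2.04 for Bub1 and 2.06 for Melk. The passenger subunit Birc5 had 2.08, and the kinesins Kif11 and Kif15 had 1.68 and 1.02. The spindle and midzone proteins Tpx2, Nusap1, Hmmr and Prc1 had 1.72, 1.46, 1.93 and 1.34. Cenpf had 1.88, Ube2c 2.38 and Cdca3 1.34. Without the block none of the 15 passed (edgeR), so these differences rest on comparing libraries within collection dates.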

How the results depend on the processing

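With the collection date as a replicate block, 27 members passed for genotype, 3 for age and 15 for the difference between these effects, against 0 in each without it. Of all genes, 3.41%, 14.9% and 7.03% passed with the block in the same order, and 0.0441%, 2.01% and 0.250% without it. Chosen after seeing the data were the following. With the block and relative log expression scaling 27 and 3 passed, with the block in DESeq2 29, 4 and 19 (genotype, age, difference), and with the block on only the 6 libraries compared 27 and 2. With the block and without date pair 1, 2 or 3, the counts for genotype were 10, 13 and 17, and for age 0, 5 and 2. The shares of all genes in these fits chosen after seeing the data are not given here. DESeq2 without the block called 5 members for genotype (0.944% of all genes) and 3 for apoptosis-resistant against young cells (1.09%). Other scaling, no filter on low counts or only the 6 libraries compared left every count at 0 in edgeR. Leaving out each library in turn, the counts stayed at 0, and the median log2 fold change ran from -2.13 to -1.11 for genotype, from -0.62 to 0.11 for age, from 0.80 to 2.04 for their difference, from -1.84 to -0.62 for apoptosis-resistant and from -0.04 to 0.66 for apoptosis-sensitive against young cells. The last was below 0 without apoptosis-sensitive replicate 3 (-0.039) or young replicate 2 (-0.040). The difference of 2.04 was without apoptosis-resistant replicate 3.

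Single members changed sign as follows. For genotype, Cenpa was at 0.11 without apoptosis-sensitive replicate 3. For age, without young replicate 3 the median (0.11), Ccna2 (0.35), Tpx2 (0.45), Nusap1 (0.022) and Mki67 (0.19) turned positive. Tpx2 was at 0.0067 without old replicate 1, Prc1 at 0.010 without young replicate 1, and Cdc20 at -0.054, -0.073 and -0.094 without old replicate 3, young replicate 1 and young replicate 2. With the block, Prc1 was at 0.0080 without date pair 1 and 0.0073 without pair 3, Cdc20 at -0.076 without pair 2, and Tpx2 and Mki67 at 0.068 and 0.23 without pair 3. At the other end of leaving out 1 library, these were Cenpa -0.33 for genotype, and for age Ccna2 -0.81, Tpx2 -0.61, Nusap1 -0.73, Prc1 -0.44, Mki67 -0.78 and Cdc20 0.51. The cause was not tested. Low counts limit 8 members that had under 20 reads in a library.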
